A study of Mus musculus with 24 samples.

Results

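The genes described here are the clustered histone genes of the mouse, taken as every protein-coding gene whose symbol starts with H1f, H2ac, H2bc, H3c or H4c followed by a number. The rule gave 67 of the 21883 protein-coding genes on assembled chromosomes: 10 genes for the linker histone H1, 17 for H2A, 16 for H2B, 12 for H3 and 12 for H4. Of these, 63 lay in 3 clusters, with 22 genes at chr13:21715711-22043658, 31 genes at chr13:23531044-23934913 and 10 genes at chr3:96219885-96270192 (GRCm38.p6, the assembly that mm10 names). The other 4, H1f0 and H1f7 on chromosome 15 and H1f8 and H1f10 on chromosome 6, stood alone. The label "replication-dependent" does not hold for every gene the rule takes: H1f0 and H1f10 code for linker variants made outside S phase, H1f8 for the oocyte linker histone, and H1f6, H1f7, H2ac1 and H2bc1 for histones of the testis.

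The cells were TgSpi1 erythroleukaemic cells (#763) of mouse bone marrow, labelled as leukaemic erythroid cells, which overexpress the ETS-family transcription factor SPI1 (PU.1) from a transgene and were grown with erythropoietin. Cells of the Dox_Treated group were given doxycycline for 48 h, which switches on an shRNA that targets Spi1 mRNA, and those of the Dox_Untreated group were not. No group with doxycycline but without the hairpin is labelled, so the drug and the hairpin cannot be told apart. The number 763 is the only cell source named, so the data describe that source and not a set of independent leukaemias.

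For each group there was 1 peak list for H3K27ac, histone H3 acetylated at lysine 27, which marks active promoters and enhancers, and 1 for H3K4me1, H3 monomethylated at lysine 4, which marks enhancers and the flanks of active promoters. For H3K27ac a list stands for replicates 1 and 2, and for H3K4me1 it stands for replicate 1. Errors and tests over replicates could not be had from them, and every difference is one between lists. The lists hold positions of peaks and no read counts, so depth is unknown and the height of the signal was not measured. The unit used for a gene is its covered length, the number of bp within 5 kb of either annotated end that lie in peaks.

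A dividing cell must package each new copy of its DNA, and the clustered histone genes supply the bulk of the H1, H2A, H2B, H3 and H4 proteins during S phase. They are short genes, mostly without introns, whose mRNAs end in a stem-loop bound by SLBP in place of a poly(A) tail. Their transcription is driven by NPAT, a target of cyclin E and CDK2, in nuclear histone locus bodies that gather the clusters. H1 binds the linker DNA between nucleosomes, and H2A, H2B, H3 and H4 form the core around which the DNA is wound.

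The 4 lists differ in ways that bear on every gene. The Dox_Treated H3K27ac list held 23341 peaks and the Dox_Untreated list 28902, while they covered 41.2 and 41.5 Mb. The H3K4me1 lists held 101388 and 119362 peaks and covered 195.4 and 184 Mb. In both marks the treated list thus held fewer, wider peaks. As a check of the labelled cell type, 8 of 12 erythroid marker genes had H3K27ac within 1 kb in the untreated list and 12 of 12 in the treated list. The same counts were 2 and 1 of 10 for myeloid, 0 and 0 of 7 for T-cell, 1 and 1 of 6 for B-cell and 0 and 0 of 7 for stromal and endothelial markers. Over the 5 kb windows, 6 myeloid markers (Mpo, Elane, Lyz2, Itgam, Cebpe, Adgre1) had 0 bp of H3K27ac in both lists, and the other 4 (Csf1r, Cd14, Csf3r, Fcgr1) had 353 to 1603 bp untreated and 303 to 1403 bp treated. The erythroid markers were longer at 8 genes and shorter at 4 in the treated list, from Hba-a1 (0 to 6109 bp) to Gata1 (4610 to 2913 bp). The lists do not measure Spi1 RNA, so the effect of the hairpin on its target was not checked.

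The sequences upstream of 6 of these genes and between 2 pairs of them are shown because peaks lie, or fail to lie, over them in ways described below. They come from RefSeq promoter windows on GRCm38.p6. The 6 single promoters are the 150 bases before the start site, on the strand of the gene, with the letters of 3 searched motifs in capitals. These are the TATA box (TATAAA), the CCAAT box that the factor NF-Y binds, on either strand, and the H1 box of linker histone promoters (AAACACA). H1f2 lies at chr13:23738657-23738806 (plus strand), H1f4 at chr13:23622559-23622708 (minus), H3c2 at chr13:23752195-23752344 (plus), H4c4 at chr13:23581418-23581567 (plus), H4c17 at chr13:21811596-21811745 (plus) and H4c18 at chr13:21832198-21832347 (minus).
H1f2: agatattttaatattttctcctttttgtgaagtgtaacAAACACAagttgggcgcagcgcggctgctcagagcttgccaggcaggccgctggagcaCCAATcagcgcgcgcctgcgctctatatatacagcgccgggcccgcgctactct
H1f4: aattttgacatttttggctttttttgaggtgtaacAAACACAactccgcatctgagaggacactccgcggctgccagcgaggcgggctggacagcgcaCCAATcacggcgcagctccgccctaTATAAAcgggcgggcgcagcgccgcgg
H3c2: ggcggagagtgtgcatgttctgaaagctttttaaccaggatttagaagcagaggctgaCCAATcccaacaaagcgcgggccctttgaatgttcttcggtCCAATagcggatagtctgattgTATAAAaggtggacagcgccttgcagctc
H4c4: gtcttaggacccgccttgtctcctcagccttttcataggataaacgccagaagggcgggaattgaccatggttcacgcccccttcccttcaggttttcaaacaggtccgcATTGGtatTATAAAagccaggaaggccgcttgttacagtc
H4c17: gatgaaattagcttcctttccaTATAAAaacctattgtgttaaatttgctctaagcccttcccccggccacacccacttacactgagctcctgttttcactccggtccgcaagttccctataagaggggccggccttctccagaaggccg
H4c18: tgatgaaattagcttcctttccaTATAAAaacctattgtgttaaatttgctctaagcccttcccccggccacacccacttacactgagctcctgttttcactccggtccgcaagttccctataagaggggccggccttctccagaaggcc

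H1f2 and H1f4 matched at 72% of their 150 bases and share the order H1 box, then CCAAT. In H1f2 the H1 box began 112 bases and CCAAT 54 bases before the start, and in H1f4 these distances were 115 and 52 bases. H4c17 and H4c18 matched at 99.3% and are near-identical copies, set apart here by a shift of 1 base in the listed start. H3c2 carries 2 CCAAT boxes and a TATA box 29 bases before its start. H4c4 carries a TATA box 32 bases before its start and CCAAT on the opposite strand.

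Many H2A and H2B genes are arranged head to head and share the stretch between their start sites. The stretches for H2ac11 with H2bc11 (chr13:22042950-22043197) and H2ac12 with H2bc12 (chr13:22035644-22035820) are given on the plus strand, so that the H2A gene reads leftward from the left end and the H2B gene rightward from the right end. Capitals mark CCAAT boxes, octamer cores and E2F letters on either strand, whose spelling is given with the counts that follow.
H2ac11/H2bc11: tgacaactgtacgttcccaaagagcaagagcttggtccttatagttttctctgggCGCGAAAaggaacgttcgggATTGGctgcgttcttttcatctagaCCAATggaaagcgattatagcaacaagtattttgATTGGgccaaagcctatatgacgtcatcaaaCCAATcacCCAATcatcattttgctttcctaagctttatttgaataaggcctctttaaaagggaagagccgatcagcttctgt
H2ac12/H2bc12: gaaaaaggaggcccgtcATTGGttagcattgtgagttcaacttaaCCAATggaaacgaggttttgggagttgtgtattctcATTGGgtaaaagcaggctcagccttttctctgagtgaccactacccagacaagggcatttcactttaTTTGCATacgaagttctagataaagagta

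The promoter letters followed the histone class. Windows of 300 bases, 250 before and 50 after the start, were listed for 63 start sites of 62 of the genes. H3c1, H3c7, H2bc4, H4c14 and H2bc21 had none listed, and H2bc6 had 2. CCAAT on either strand was in all 17 H2A, all 15 H2B and all 10 H3 windows, in 7 of 10 H1 windows and in 3 of 11 H4 windows, which makes 82.5% of the windows against 38.2% of all 21262 protein-coding windows of this length. TATAAA was in 34 of 63 windows (54.0%, against 12.6%), and the share was highest for H4, with 8 of 11. This counts the letters at any place in the window. The H4 matches lay from position -250 to 42 relative to the start (median -79.5), and that of H4c4 at -32. In H1 the 4 same-strand matches lay from -33 to -26. In H2B 4 matches were on the opposite strand and 3 on the same strand.

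The octamer core ATGCAAA, the site of the POU factor OCT1, was in 7 of 15 H2B and 6 of 17 H2A windows and in 1 H4 window, 22.2% of the windows against 4.23% of all. The H1 box AAACACA was in 5 of 10 H1 windows, in each of them between 122 and 112 bases before the start, and in 2 H2A and 2 H2B windows, where all windows had it in 6.15%. The E2F letters TTTGGCG or TTTCGCG were in 8 H2A and 5 H2B windows and in no other class (20.6% against 2.97%). The SPI1 letters GAGGAAG were in 1 of 63 windows (1.59% against 13.6%) and the GATA letters AGATAAG in 1 (1.59% against 2.64%). Motifs were searched on both strands, H2A and H2B windows of a head-to-head pair overlap and so share letters, and a match is a description of the letters only.

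**Figure D1:**
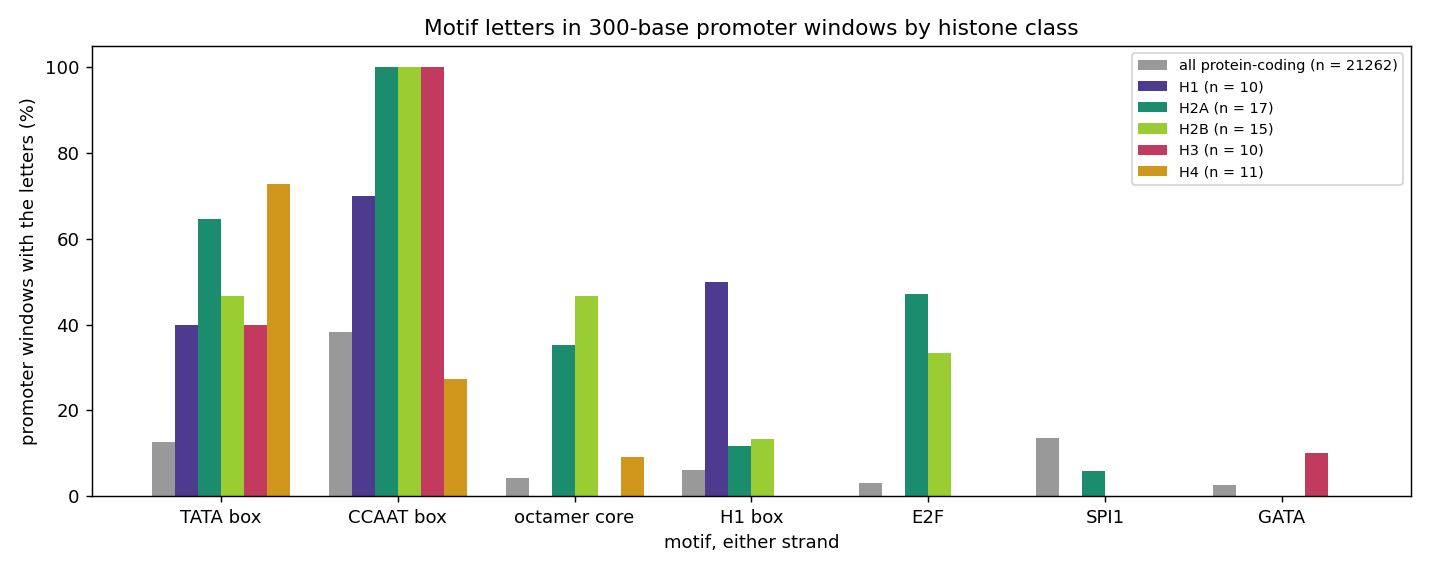
Share of 300-base promoter windows (y axis, percent) that hold the letters of each motif on either strand (x axis), for all 21262 protein-coding windows (grey) and for each histone class (colours). CCAAT stands at 100% in H2A, H2B and H3 and at 27.3% in H4, and the H1 box at 50% in H1.

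H3K27ac covered the histone genes far more widely than most genes. In the untreated list 59 of 67 genes had an H3K27ac peak within 1 kb, where 46.5% of all protein-coding genes did, and in the treated list 60 did, where 45.8% did. Among genes with a peak in either list, the median covered length was 7189 bp over 62 histone genes and 2306 bp over 11690 genes in the untreated list, and 7440.5 and 2303 bp in the treated list. Of the 67 genes, 47 were at or above the 95th percentile of all genes in the untreated list (5762 bp) and 48 in the treated list (5706 bp).

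For H3K4me1 the histone genes stood less far out. In the untreated list 60 genes had a peak within 1 kb (60.5% of all genes) and in the treated list 59 did (60% of all genes). The medians over genes with a peak were 8270 bp for 63 histone genes and 5308.5 bp for 15486 genes untreated, and 9059 and 5662 bp treated. Only H2bc6 and H2bc4, whose annotated spans of 37455 and 8282 bp give them longer windows than most members have, reached the 95th percentile of H3K4me1 in each list.

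Histone genes are close together, so the window of 1 gene often holds the start of another: the median was 2 listed starts per window for histone genes and 1 for other genes. At equal numbers of starts the histone genes also had longer covered lengths. These medians are over all genes, with or without a peak, so they mix the presence of a peak with its width. With 2 starts in the window, the untreated H3K27ac median was 6493 bp over 25 histone genes and 2003 bp over 3707 other genes. With 3 starts it was 7776 bp (24 genes) and 2756 bp (1284 genes), and with 4 to 11 starts 9467 bp (8 genes) and 3454 bp (563 genes). With no more than 1 start it was 4869.5 bp (10 genes) and 0 bp (16262 genes).

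Between the lists, the H3K27ac covered length changed little at most members. It was longer in the treated list at 40 of the 62 genes with a peak, shorter at 16 and equal at 6. In windows of 1 kb 10 members were longer and 8 shorter, and in windows of 20 kb 36 and 28. Many windows of 1 kb were filled by H3K27ac in both lists, which left no room for a gain. No share over all genes is given for those window sizes. Of all 11690 genes with a peak, 47.7% were longer and 48.8% shorter. The median difference was 222 bp for the histone genes and 0 bp for all genes. A change of at least 1.5 times and 500 bp was met by 2 genes, H4c18 and H2ac24, both from 1103 to 1656 bp through the same peaks, and by no gene in the other direction, where 8.92% of all genes were longer and 8.64% shorter by that rule. A gain of that size was out of reach for many members, whose windows end 5 kb past either end of mostly short genes. Their untreated median was 7189 bp, against 2306 bp for all genes.

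In H3K4me1, 60 of 63 histone genes with a peak had a longer covered length with doxycycline and 3 a shorter one, where 62.9% of all 15486 genes were longer and 36.2% shorter. The median difference was 647 bp, and 347 bp for all genes. The treated H3K4me1 list covered more of the genome, and with covered lengths scaled to equal list totals 39 members were longer and 24 shorter. With peaks within 1 kb merged in both lists, chosen after seeing the data, 36 were longer and 9 shorter. No share over all genes is given under the scaling or the merging, and the shares above are for unscaled lengths. On the unscaled lengths the 3 shorter genes were H1f8 (3109 to 1906 bp), H4c3 (8316 to 7156 bp) and H1f0 (5859 to 4953 bp). By the 1.5-times rule no member was longer and 1, H1f8, was shorter, against 10.3% and 6.43% of all genes. Member windows end 5 kb past either end of mostly short genes. A short member at the untreated median of 8270 bp had no room for a gain of 1.5 times. The median of all genes was 5308.5 bp, so the shares of longer genes are not like for like. The many small gains share peaks between neighbouring genes and are not independent.

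**Figure D2:**
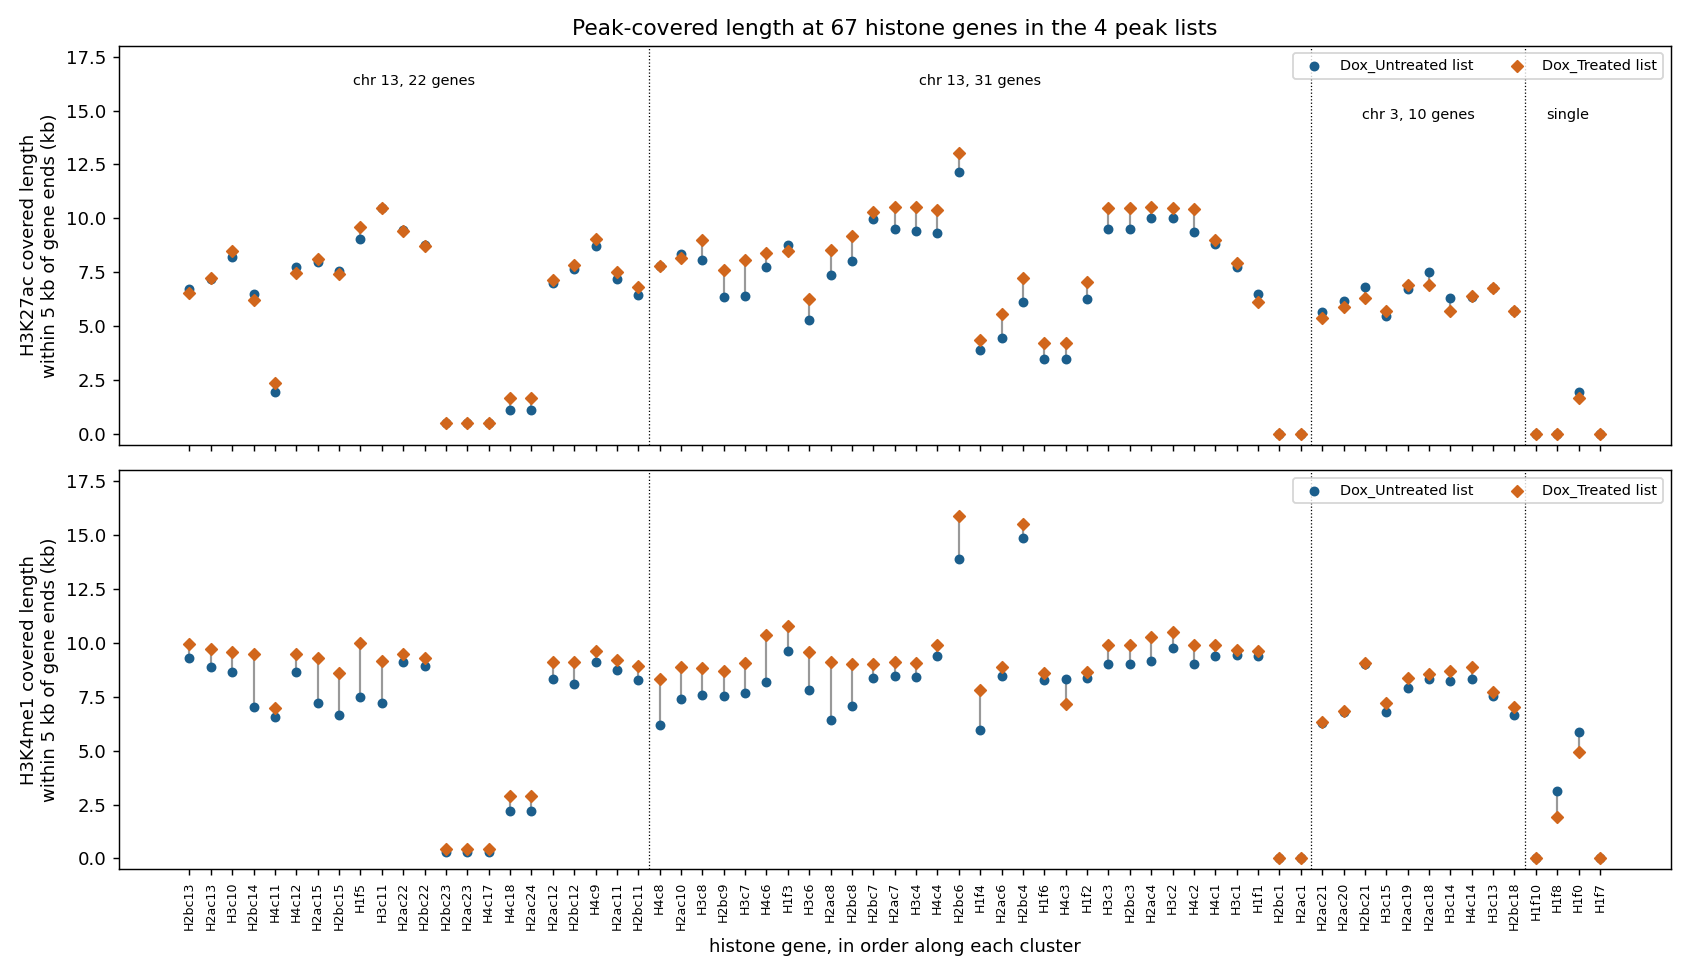
Covered length within 5 kb of either gene end (y axes, kb) for H3K27ac (top) and H3K4me1 (bottom) at each of the 67 genes (x axis, in order along each cluster), with circles for the Dox_Untreated list, diamonds for the Dox_Treated list and a grey line joining them. H3K4me1 diamonds lie above the circles at 60 genes, while H3K27ac diamonds lie above the circles at 25 genes of the 31-gene cluster, and H3K27ac is low or 0 for the H2bc23 to H2ac24 stretch, H2bc1 and H2ac1.

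The 3 clusters differed. Over all genes with a peak, 47.7% were longer and 48.8% shorter in H3K27ac. In the 31-gene cluster on chromosome 13, H3K27ac was longer at 25 genes and shorter at 4. The windows of that cluster's genes together held 83477 bp untreated and 90697 bp treated, which is 57.2% and 62.2% of their length. In the 22-gene cluster it was longer at 12, shorter at 6 and equal at 4, with 47174 and 48174 bp. In the 10-gene cluster on chromosome 3 it was longer at 3, shorter at 5 and equal at 2, with 24827 and 23768 bp. H3K4me1 was longer at 28 of 29, 22 of 22 and 10 of 10 genes with a peak, beside 62.9% of all genes with a peak. Its summed lengths were 103304 and 114465 bp, 60372 and 70124 bp, and 33136 and 34824 bp. These are unscaled lengths, and the treated H3K4me1 list covered more of the genome. In windows of 5 kb most of the summed H3K27ac difference lay in the 31-gene cluster: without it the mean difference per gene was 17.58 bp in place of 344.1 bp, and the summed difference -359 bp in place of 6861 bp. This share depended on the window. In windows of 1 kb the summed difference was 194 bp in the 31-gene cluster and 1278 bp in the 22-gene cluster, and in windows of 20 kb it was 5461 and -845 bp. At many members H3K27ac filled the whole 1 kb window in both lists, as at H4c8 (2435 bp in each). No gain could show at these, so the 1 kb values cannot tell where gains lay. The H3K4me1 difference of the chromosome 3 cluster, 1688 bp, turned to -350.5 bp with lengths scaled to equal list totals and to -119 bp with peaks within 1 kb merged.

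The 6 largest H3K27ac gains were in the 31-gene cluster and fell in H2A, H2B and H3 genes. The cut at 6 set the classes: the lowest gain named, 1100 bp, was close to those of H3c4 and H4c4 (1094 bp each) and H4c2 (1091 bp). H3c7, an H3 gene, went from 6412 to 8062 bp. Its neighbour H2bc9, an H2B gene, went from 6335 to 7585 bp. The head-to-head pair H2ac8 and H2bc8 went from 7372 to 8525 and from 8015 to 9168 bp, and H2ac6 and H2bc4 from 4453 to 5553 and from 6135 to 7235 bp, with the same number of bp added to both genes of each pair. The largest losses were smaller. They were at H2ac18 (7514 to 6908 bp), H3c14 (6326 to 5720 bp) and H2bc21 (6806 to 6306 bp) on chromosome 3, and at H1f1 (6493 to 6134 bp), H4c12 (7761 to 7455 bp) and H2bc14 (6508 to 6208 bp) on chromosome 13. H2ac18 and H3c14 are neighbours with the same difference, -606 bp. H3c14 and H4c12 have near copies, and their values are uncertain for a reason given below. The loss of 300 bp at H2bc14 was equalled at H1f3, H1f0, H2ac21 and H2ac20. For H3K4me1 the largest gains were at H2ac8 (6434 to 9114 bp), H1f5 (7483 to 10000 bp), H2bc14 (7042 to 9489 bp) and H4c6 (8195 to 10383 bp).

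In the treated list, histone peaks that were separate in the untreated list were joined. Peak widths, gaps and joined peaks in H3K27ac depend on how the 2 replicates were made into 1 list, which is not stated. The widest H3K27ac peak of that whole list lay in the 31-gene cluster at chr13:23737499-23764801, with 27303 bp over 9 genes: H1f2, H3c3, H2bc3, H2ac4, H3c2, H4c2, H4c1, H3c1 and H1f1. These 9 code for 2 linker histones and for every core histone class. In the untreated list the same stretch held 5 peaks of 5103, 10953, 3903, 203 and 5653 bp, 25815 bp in all, with 4 gaps of 997, 497, 347 and 247 bp between them. None of the 4 gaps held a listed start of a histone gene, and the nearest starts were 1701 to 2123 bp away. The outer edges of the treated peak lay inside those of the untreated ones, by 200 bp on the left and 400 bp on the right. The wider peak therefore came from 2088 bp of filled gaps, not from spread at its ends. The untreated list had a widest peak of 18003 bp elsewhere, and its widest at a histone gene was 14653 bp, the 11th widest of that list.

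**Figure D3:**
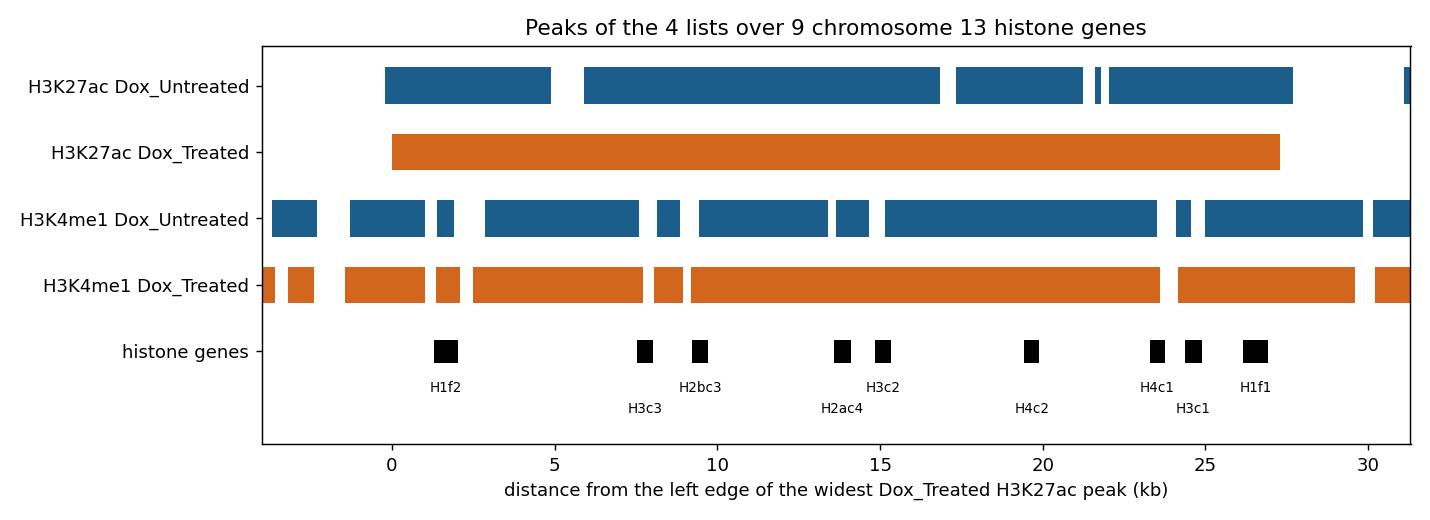
Map of the stretch under the widest Dox_Treated H3K27ac peak (x axis, kb from its left edge), with a row of bars for the peaks of each list and black boxes for the 9 histone genes. The treated H3K27ac row is 1 unbroken bar of 27303 bp where the untreated row has 5 bars with 4 gaps, and the treated H3K4me1 row has closed the gaps at the starts of H2ac4 and H3c2.

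Other acetylated stretches were joined too. A treated peak of 18453 bp over H2ac8, H2bc8, H2bc7, H2ac7, H3c4, H4c4 and H2bc6 met untreated peaks of 9603, 453 and 7353 bp, and its ends did not lie outside theirs. A treated peak of 11503 bp over H2ac12, H2bc12, H4c9, H2ac11 and H2bc11 met untreated peaks of 9303 and 1703 bp. Here the filled gap was 197 bp and the treated peak also reached 150 bp further at each end. In contrast, the peak over H1f5, H3c11, H2ac22 and H2bc22 was unbroken in both lists, at 14653 bp untreated and 15153 bp treated.

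Around all members, 9 treated H3K27ac peaks met 22 untreated ones, with 13 gaps of 197 to 997 bp (median 297 bp) between them. The gaps held a histone start in 2 cases, H3c6 and H4c3. For H3K4me1, 16 treated peaks met 41 untreated ones, with 25 gaps of 197 to 1547 bp (median 397 bp), of which 8 held a histone start. The number of H3K27ac peaks at the members went from 47 to 30, and their median width went from 1703 to 3503 bp. Over the whole lists the medians were 1003 and 1353 bp.

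Joining was common in the treated lists as a whole. Of treated H3K27ac peaks, 30% of the 30 at histone genes met several untreated peaks, as did 10.8% of all. A wide peak can meet more peaks than a narrow one, and among peaks of at least 5 kb the counts were 6 of 13 at histone genes and 47.2% of all 883. For H3K4me1 the counts at that width were 12 of 19 and 50.7% of all 7141. These counts share a least width of 5 kb and are not matched on width above it. With peaks within 1 kb of each other merged in every list, an alternative chosen after seeing the data, 25 members were longer and 23 shorter in H3K27ac and the mean difference was 33.58 bp. No share over all genes is given for that alternative.

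The start sites sat in acetylated chromatin. Of 63 listed starts, 48 lay inside an H3K27ac peak in the untreated list (76.2%) and 51 in the treated list (81.0%), where 40.7% and 42.7% of 21199 other starts did. The 3 covered in the treated list alone were those of H3c6, H4c3 and H2ac19. All 48 untreated ones remained covered. Around them H3K27ac peaks were also common at a distance. At 2 kb upstream 75% of the histone starts had a peak untreated and 79.2% treated. Among 8342 other starts covered in both lists the shares were 14.8% and 13.6%. At 2 kb downstream the shares were 72.9% and 81.3%, against 19.7% and 18.8%.

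H3K4me1 was interrupted at the starts, as it is at active promoters in general. Of the 48 starts acetylated in both lists, 9 lay inside H3K4me1 in the untreated list (18.8%) and 19 in the treated list (39.6%). Among the 8342 other starts the shares were 22.6% and 29.7%. H3K4me1 was at the start in the treated list alone at 11 of the 48 (22.9%, against 9.60% of the others) and in the untreated list alone at 1, H2ac21 (2.08%, against 2.59%). The 11 were H3c10, H3c4, H3c2, H4c9, H4c6, H4c4, H1f5, H1f3, H2bc14, H2bc3 and H2ac4. None of them belongs to a head-to-head pair.

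The gap in H3K4me1 at H4c4 ran from 23581402 to 23581798 in the untreated list and so held the whole printed H4c4 promoter. In the treated list this stretch lay inside a peak of 10903 bp. The untreated gap at H3c2, from 23752152 to 23752648, likewise held the printed H3c2 promoter, and a treated peak of 14403 bp covered it. At H1f2 and H1f4 the gap stayed open and narrowed, from 397 to 347 bp and from 597 to 347 bp. Of 28 histone starts with a gap in both lists, 23 had a narrower gap in the treated list, 1 a wider one and 4 an equal one, and the median went from 747 to 547 bp. Among 5515 other starts 76.8% were narrower and the median went from 1047 to 897 bp. Neighbouring starts in a single gap were counted separately. The treated H3K4me1 list covered more bp in all, and its part in the closing of these gaps was not tested.

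**Figure D4:**
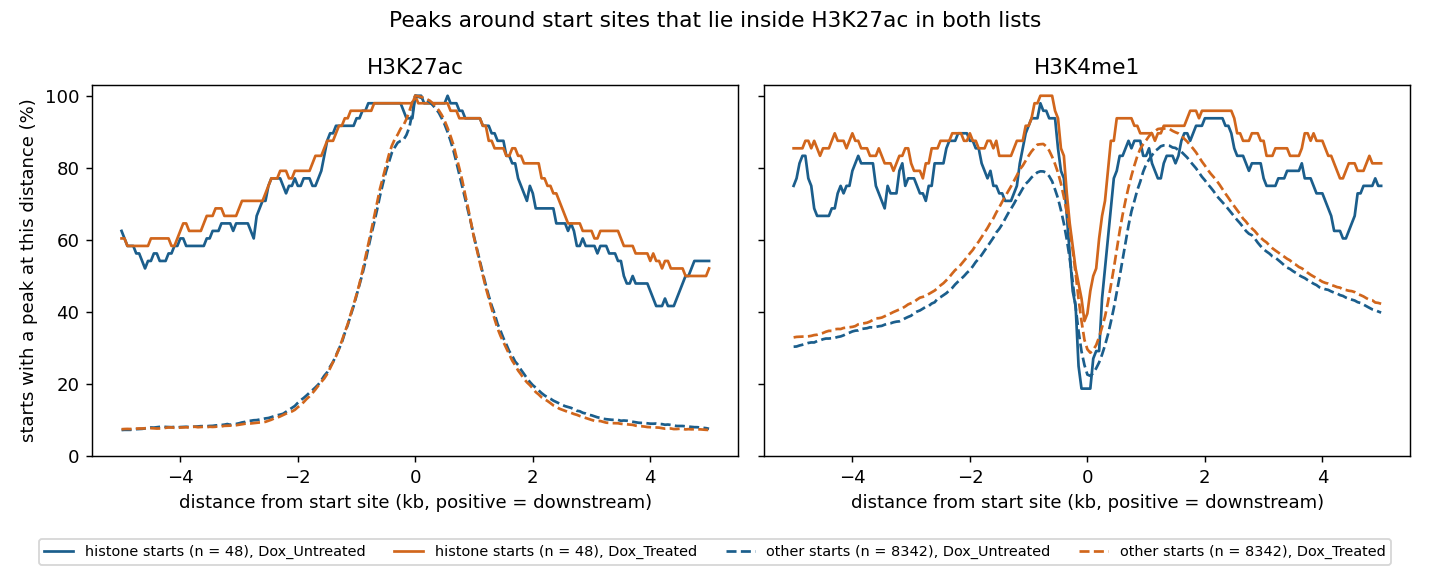
Share of start sites with a peak (y axes, percent) by distance from the start (x axes, kb, positive downstream) for H3K27ac (left) and H3K4me1 (right), over the 48 histone starts (solid) and 8342 other starts (dashed) that lie inside H3K27ac in both lists, untreated in blue and treated in orange. H3K27ac stays above 70% of histone starts at 2 kb on either side, and the H3K4me1 dip at the histone starts is at 18.8% untreated and 39.6% treated.

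Between the starts of head-to-head H2A and H2B pairs there was no H3K4me1 in either list. Starts on opposite strands within 500 bp of each other made 9 pairs, each of 1 H2A and 1 H2B gene, with 164 to 281 bp between the starts (median 180 bp). H3K4me1 covered 0 bp of the stretch between the starts in all 9 pairs in both lists. A gap in the sense used above needed H3K4me1 peaks within 2 kb on both sides, and 2 pairs had none. H2bc23 with H2ac23 had such a peak on 1 side only in both lists, and H2bc1 with H2ac1 had no H3K4me1 within 5 kb. H3K27ac covered the whole stretch in 6 pairs untreated and 7 treated, and 0 bp in those 2 pairs in both lists. The pair that differed was H2ac11 with H2bc11. There the untreated list had a gap at chr13:22042952-22043148, which began 3 bp from the H2ac11 start, so that 53 of 250 bp were covered, and the treated list covered all 250 bp. The gap held most of the printed H2ac11/H2bc11 stretch, with its E2F letters and all of its CCAAT boxes. Across the printed H2ac12/H2bc12 stretch H3K27ac ran unbroken in both lists.

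The linker histone genes had no common direction in H3K27ac, where 4 were longer and 3 shorter (47.7% and 48.8% of all genes). Of the H1 genes of S phase, H1f1 had 6493 and 6134 bp of H3K27ac (untreated, then treated), H1f2 6236 and 7033 bp, and H1f3 8779 and 8479 bp. H1f4 had 3903 and 4353 bp, and H1f5 9027 and 9577 bp. The testis gene H1f6, which lies between H2bc4 and H4c3 in the 31-gene cluster, had 3456 and 4203 bp and its start lay inside H3K27ac in both lists. Outside the clusters, H1f0, the linker variant linked to differentiation, had 1956 and 1656 bp, while H1f7, H1f8 and H1f10 had 0 bp in both lists. In H3K4me1 the values were 9404 and 9601 bp at H1f1, 8384 and 8637 bp at H1f2, and 9635 and 10776 bp at H1f3. They were 5959 and 7816 bp at H1f4, 7483 and 10000 bp at H1f5, and 8291 and 8591 bp at H1f6. H1f0 and H1f8 were shorter, as given above, and H1f7 and H1f10 had 0 bp. By unscaled lengths the 6 clustered H1 genes were thus all longer in H3K4me1, where 62.9% of all genes were longer and 36.2% shorter. The only H1 genes that were shorter stood outside the clusters. The treated H3K4me1 list covered more of the genome, and its part in these values was not tested.

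The counts of the core histone classes are given side by side, and differences between classes were not tested. In H3K27ac (47.7% of all genes longer, 48.8% shorter), 10 H2A genes were longer and 5 shorter, 8 H2B genes longer and 5 shorter, 9 H3 genes longer and 1 shorter, and 9 H4 genes longer and 2 shorter. In H3K4me1 (62.9% and 36.2% of all genes), every H2A (16), H2B (15) and H3 (12) gene with a peak was longer, as were 11 of 12 H4 genes. These are unscaled lengths, and the members as a whole stood at 39 longer and 24 shorter with list totals made equal. No share over all genes is given for that scaling. H3 genes, whose products carry the marked lysines, all had H3K27ac within 1 kb in both lists, with 5286 to 10483 bp untreated and 5682 to 10504 bp treated. H4 genes ranged from 503 bp at H4c17 to 9359 bp untreated and 10450 bp treated, both at H4c2. In H2A and H2B the lowest members had 0 bp and the highest 10008 and 12162 bp untreated.

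A run of 5 genes in the 22-gene cluster had little of either mark. H2bc23, H2ac23 and H4c17 each had 503 bp of H3K27ac in both lists and 303 and 453 bp of H3K4me1. H4c18 and H2ac24 had 1103 and 1656 bp of H3K27ac and 2206 and 2903 bp of H3K4me1. None of the 5 starts lay inside H3K27ac in either list. Across all members 12 starts were in no H3K27ac list: these 5, the testis pair H2bc1 and H2ac1 with 0 bp in all 4 lists, H1f7, H1f8 and H1f10, and H3c14 and H3c15 on chromosome 3.

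Several of these genes have near copies. Over the 300-base window, H4c17 and H4c18 matched at 99.3%, H3c14 and H3c15 at 94.7%, H2ac23 and H2ac7 at 83.7%, and H2bc23 and H2bc7 at 79.7%. For the 12 uncovered starts the best match with another member had a median of 75%, with a range from 61% to 99.3%. For the 48 starts covered in both lists the median was 64.5%, with a range from 60% to 91.7%, the highest being H4c11 with H4c12. How reads that fit several places were treated is not given in the sources used here, and its part in these values was not tested. The values of H4c17, H4c18, H3c14, H3c15, H4c11 and H4c12, the pairs above 90%, are uncertain for this reason. The cut at 90% rests on promoter windows only, and it leaves out H2ac18 with H2ac19, at 85.3%. H4c11 and H4c12 had H3K27ac at their starts in both lists.

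Histone genes just outside the naming rule were chosen after the members' values were seen and are given for completeness. On chromosome 11, H2aw had 4847 and 5964 bp of H3K27ac and H2bu2 had 2077 and 3027 bp. On chromosome 6, H4f16 had 6536 and 6386 bp. H4bc24, an H2B gene by its older name, lies beside H2ac24 and had 1103 and 1656 bp.

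The non-histone genes that lie between the histone genes were not covered in the same way. Of 9 such genes, 3 had H3K27ac within 1 kb in either list. These were Hfe, a regulator of iron uptake (3527 bp untreated and 3971 bp treated), Slc17a4, a phosphate transporter gene (6053 and 4353 bp), and the zinc finger gene Zfp184 (1256 and 903 bp). Pom121l2, Prss16, Trim38, Slc17a1, Slc17a2 and Slc17a3 had 0 bp of H3K27ac in both lists. Prss16, a thymic protease gene, and Slc17a1 did have H3K4me1, with 9481 and 8928 bp and 8281 and 9428 bp.

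Genes that make and process histone mRNA were acetylated in both lists without a common direction. Of 25 such genes, all with H3K27ac within 1 kb in both lists, 15 were longer and 9 shorter in H3K27ac (47.7% and 48.8% of all genes), and 20 were longer and 5 shorter in H3K4me1 (62.9% and 36.2%). The largest H3K27ac differences were at Upf1, a factor in histone mRNA decay (5865 to 8068 bp), Ccne1, cyclin E1 (3053 to 4753 bp), E2f1, a G1/S transcription factor (6256 to 4956 bp), and Cpsf2, a subunit of the cleavage complex (8764 to 7667 bp). For H3K4me1 they were at Slbp, the stem-loop binding protein (13618 to 17888 bp), Ccne1 (9065 to 12865 bp), Lsm11, of the U7 snRNP (6165 to 4068 bp), and E2f1 (11825 to 10371 bp). Npat itself had 2859 and 3153 bp of H3K27ac.

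Of 23 histone chaperone and import genes, 13 were longer and 10 shorter in H3K27ac (47.7% and 48.8% of all genes), and 18 longer and 5 shorter in H3K4me1 (62.9% and 36.2%). The largest H3K27ac differences were at Daxx, an H3.3 chaperone (6512 to 7748 bp), Cabin1 (4059 to 4806 bp), Nap1l1, an H2A-H2B chaperone (5743 to 3109 bp), and Chaf1a, the large subunit of chromatin assembly factor CAF-1 (5292 to 4092 bp). In H3K4me1 they were at Ipo4, an importin (5512 to 9484 bp), Rbbp4 (10013 to 13461 bp), Rbbp7 (8236 to 6533 bp) and Atrx (6532 to 5836 bp).

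The replacement histone genes, which lie outside the 3 clusters, had shorter median lengths of H3K27ac than the clustered genes. This was not compared at equal numbers of starts. Of 9 genes matched, 8 had a peak, with a median of 4141 bp untreated and 5084.5 bp treated, and 5 were longer and 3 shorter in either mark, beside 47.7% and 48.8% of all genes in H3K27ac and 62.9% and 36.2% in H3K4me1. H2ax, coding for the variant phosphorylated at DNA breaks, went from 3935 to 5835 bp and H3f3a, coding for H3.3, from 3853 to 5310 bp. H2aj went from 7157 to 6357 bp and H2az1 from 5309 to 4859 bp. In H3K4me1 H2az2 went from 6694 to 9794 bp, H3f3a from 10662 to 12860 bp, Cenpa, the centromeric H3, from 11262 to 10209 bp and H2az1 from 8336 to 7662 bp.

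Of 37 DNA replication genes, with which the clustered histone genes share their time of expression, 21 were longer and 16 shorter in H3K27ac (47.7% and 48.8% of all genes), with a median difference of 54 bp against 0 bp for all genes. The H3K4me1 covered length was longer at 34 and shorter at 3 (62.9% and 36.2% of all genes), and its median difference was 1213 bp against 347 bp for all genes. Rfc1, of the clamp loader (2256 to 5403 bp), and Pola1, of the primase complex (2053 to 4856 bp), had the largest H3K27ac gains, and Mcm6, of the replicative helicase (4809 to 3353 bp), and Pole, the leading-strand polymerase (4159 to 2753 bp), the largest losses. In H3K4me1 Pola1 went from 9716 to 14263 bp, Rfc1 from 6853 to 10447 bp, Orc3 from 10930 to 10242 bp and Rfc4 from 11171 to 10863 bp. Their H3K27ac medians, 2903 bp untreated and 3000 bp treated, were below those of the clustered histone genes in both lists.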

How the data were processed

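Peak lists of H3K27ac and H3K4me1 from 4 of the groups among 24 samples were used; entinostat, DMSO, SPI1, H3K27me3, polymerase and input samples were not analysed here. Per the submitters' processing notes, bcl2fastq 2.17.1.14 and BWA were used with the build mm10. For peak calling, and for how 2 H3K27ac replicates became 1 list, the tool and settings are not given in the sources used. The deposited lists give positions, read as 1-based with both ends included, and, for H3K27ac, a width. The deposited H3K4me1 lists also give the authors' score per peak, whose scale is not stated and which served only to rank peaks within a list. H3K27ac peaks were ranked by width instead. The ChIP antibodies were Abcam ab4729 and ab8895, per the labels.

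Genes were placed with RefSeq annotation of GRCm38.p6, and start sites, strands and sequences were read from RefSeq promoter windows on that assembly. The rule also met 3 pseudogenes, which were left out. Members less than 500 kb apart formed a cluster. Covered length was the union of peaks within 5 kb of either annotated end, so long genes have larger windows than short ones. Identity was taken from an alignment of 300-base windows, and motifs were searched by exact letters on both strands. The scripts ran under Python 3.11.15 with biopython 1.88, pandas 2.3.3 and numpy 2.4.6. Covered lengths equalled those of bedtools 2.31.1 over the members' windows, and were tested on simulated data. Figures were drawn with matplotlib 3.10.9. A call of longer or shorter by fold needed 1.5 times and 500 bp.

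The members and gene lists were chosen with earlier results of these data known, and so was the rule for named genes: the 6 largest H3K27ac and 4 largest H3K4me1 differences in each direction, all H1 genes, and the 2 largest in each direction per mark for each list. Only 3 members were shorter in H3K4me1. H3f5 in the list of replacement histones had no match. The planned comparison of protein sequences was not run, since no protein sequences were used here. Alternatives were other windows, peak subsets, equal list totals, merged peaks, start sites only and each cluster left out.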

Additional observations from a re-analysis of the deposited data

How the results depend on the processing

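With 1 list per mark and group there is no replicate to leave out, and depth is unknown, so no difference has an error. No paired analysis was possible because each result comes from 1 list per group and from no test. The main values for H3K27ac were a mean difference of 344.1 bp, 40 members longer, 16 shorter and a summed difference of 6861 bp over the members' windows, and for H3K4me1 801.6 bp, 60, 3 and 20490 bp. With windows of 1 kb, the H3K27ac values were 9.167 bp, 10, 8 and 831 bp, and the H3K4me1 mean was 236.8 bp, with 5 shorter and a sum of 11560 bp. H3K27ac filled these windows at many members in both lists, so a gain had little room there. With windows of 2 kb, H3K27ac gave 84.29 bp, 25 longer and 3354 bp, and H3K4me1 319.1 bp, 5 shorter and 12000 bp. With windows of 20 kb, 28 members were shorter in H3K27ac and the sum was 1854 bp, and H3K4me1 gave 2640 bp and 12 shorter. The better 50% of each list, by score for H3K4me1, gave 5 shorter in H3K4me1. With covered lengths scaled to equal list totals, H3K4me1 gave 307.8 bp, 39 longer, 24 shorter and 7247 bp. Without the 4 genes outside clusters, 1 member was shorter in H3K4me1. The remaining alternatives were chosen after seeing the data. With peaks within 1 kb merged, H3K27ac gave 33.58 bp, 25 longer and a reversed sum of -760 bp, and H3K4me1 gave 356 bp, 36 longer, 9 shorter and 8924 bp. Without the 22-gene cluster the H3K4me1 sum was 10740 bp. Without the 31-gene cluster H3K27ac gave 17.58 bp and a reversed sum of -359 bp, and H3K4me1 a sum of 9331 bp; fewer genes enter these sums. The cause of the other changes was not tested. Counts of members under the alternatives have no share over all genes beside them. The counts of members with H3K27ac within 1 kb, 59 untreated and 60 treated, stayed between 56 and 62 under the 7 alternatives run for them. The better 50% of each H3K27ac list was its wider 50%, since these peaks were ranked by width and not by a score. It gave 58 untreated and 56 treated, which turns the order of the lists around. A least peak width of 200 bp changed no value.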
